A study of Homo sapiens with 4 samples.

Results

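The genes described here are 42 genes of the G2 phase and mitosis, chosen by their symbols from the 36601 genes of the count matrices, and all 42 were found in both matrices. They were measured in H9 naive human embryonic stem cells, an established line brought to a naive state, by droplet single-cell RNA sequencing. The cells had been grown as aggregates taken at 40 h or as blastoids taken at 120 h, and the medium held dm-αKG (dimethyl α-ketoglutarate, a cell-permeable form of the metabolite) at 4 mM or none (0 mM) for 40 h. A blastoid is a hollow structure that models the blastocyst, with an outer layer resembling trophectoderm (TE) and an inner group of cells resembling epiblast (Epi). Blastoids with 1 cavity were picked for dissociation, and the study describes a loss of fragile TE cells at that step. Run 1 held 4 hashtagged cultures (aggregates and blastoids at each dose) and run 2 held 2 (blastoids at each dose), so that 1 arm, meaning 1 hashtagged culture in 1 capture run, was the unit of comparison. There were thus 2 blastoid arms and 1 aggregate arm per dose, all from 1 cell line.

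Cells in G2 raise a shared set of transcripts before they divide. CDK1 paired with B-type cyclins drives entry into mitosis, Aurora and Polo kinases build the spindle, the spindle checkpoint holds the anaphase promoting complex until chromosomes are attached, and that complex with CDC20 and the ubiquitin-carrying enzymes UBE2C and UBE2S then destroys cyclin B. Trophoblast cells can, at later stages, leave the mitotic cycle and copy their genome without dividing.

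Of 6012 and 10400 cells carrying 1 hashtag in runs 1 and 2, 12647 were kept in all, and 8 barcodes occurred in both runs. The median cell held 15453 to 30015 UMIs (unique molecular identifiers, 1 per captured transcript) in the 4 Epi-like sums and 28225 to 29108 in aggregates. A blastoid cell was called TE-like where the UMIs of KRT8, KRT18, GATA3 and CLDN4 exceeded those of POU5F1, DPPA5, DPPA4, L1TD1 and TDGF1, and Epi-like otherwise. This gave 418 TE-like and 9974 Epi-like cells, of which 95 cells had marker sums within 2 times of each other. All 9 trophectoderm markers outside the rule were higher in TE-like cells, and 6 of 7 epiblast markers were lower. The TE-like cells at 0 mM in run 1 numbered 18, with 456611 UMIs in all, and DEPDC1 had 1 UMI there and NEK2 and CDC25C 3 each. Primitive endoderm markers summed to 180 CPM (UMIs scaled to the total of each sum) in those 18 cells and to 74.8 to 106 CPM in the other TE-like sums, against 18.6 to 23.6 CPM elsewhere, while mesenchyme and fibroblast markers lay between 1.24 and 7.95 CPM in all 10 sums. Of the primitive endoderm list GATA6 alone passed between the classes in the edgeR fit given below (log2 6.35 ± 0.16, SE). COL4A1 of the same list stood at 6.37 to 28.5 CPM in TE-like sums and at 13.3 to 16.3 CPM in Epi-like sums. The part of these features in the results was not tested. The filters kept 44.8 and 73.1% of blastoid singlets at 0 and 4 mM in run 1, 81.0 and 89.0% in run 2, and 71.7 and 55.7% of aggregate singlets. All arms came from 1 line, so that p-values speak for these cultures and runs only. By dose within a class and by stage the fits had 1 residual degree of freedom, and their p-values lean on variance pooled over genes. Between the classes the arm was in the model, so that p-values there reflect how the class difference varied between arms.

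The 42 genes together took between 3204 and 4272.5 CPM in the 10 sums. In Epi-like cells the summed level was 3648.5 and 3444 CPM at 0 and 4 mM in run 1 and 3950 and 3943 CPM in run 2. In TE-like cells it was 3204 and 4071 CPM in run 1 and 3822 and 3812 CPM in run 2. Aggregates stood at 4272.5 CPM at 0 mM and 3967 CPM at 4 mM, which were the highest value and the third highest. The exact 95% Poisson interval, which covers counting error only, ran from 3042 to 3372.5 CPM for the 18 TE-like cells at 0 mM in run 1 and from 3934 to 3965 CPM for the Epi-like cells at 0 mM in run 2.

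**Figure D1:**
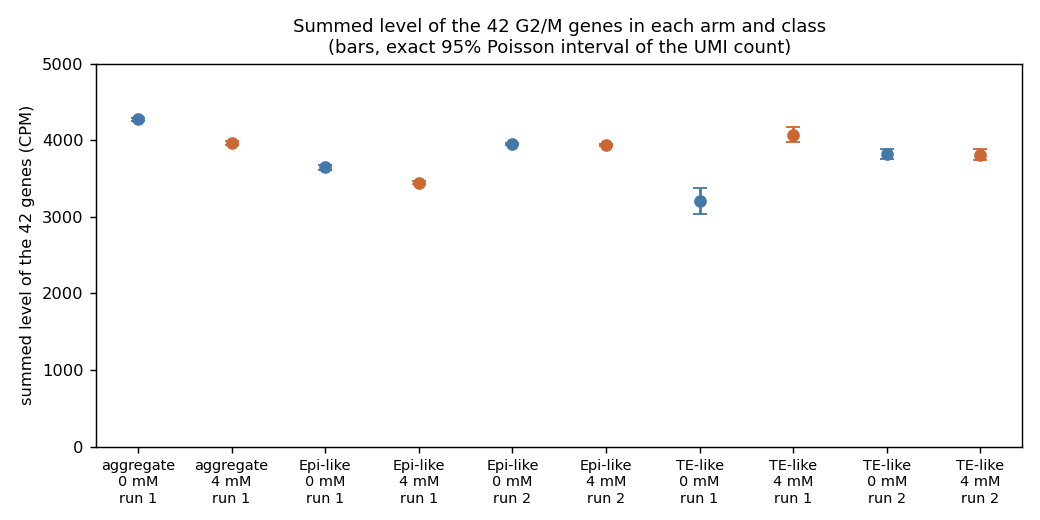
Summed level of the 42 genes in CPM (vertical axis, from 0) in each of the 10 sums of an arm and a class, blue for 0 mM and orange for 4 mM, with exact 95% Poisson intervals. The sums lie between 3204 and 4272.5 CPM, and the widest interval is that of the 18 TE-like cells at 0 mM in run 1.

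The log2 ratio of the summed level of the 42 genes in TE-like over Epi-like cells was, by arm, -0.19, 0.24, -0.05 and -0.05, and its mean turned from -0.01 to 0.20 with TMM-scaled CPM. In the fit given below, scaled by TMM factors, CDC20, the activator of the anaphase promoting complex, was 2.09-fold higher in TE-like cells. ANLN, the anillin scaffold of the contractile ring, was 2.07-fold higher in that fit. CENPA, the histone H3 variant that marks centromeres, was 1.92-fold lower in it. The comparison asked how the mitotic genes differ between the outer and the inner lineage of a blastoid, with the arm in the model (edgeR's quasi-likelihood test with Benjamini-Hochberg adjustment over 12352 genes, n = 4 arms per class). With factors of the trimmed mean of M values (TMM), 23 of the 42 genes were higher in TE-like cells, 3 were lower and 16 did not pass, at a median log2 difference of 0.30. Of all genes tested 49% passed, 23.1% as higher and 25.9% as lower.

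The split depended on the scaling, and TE-like sums had TMM factors of 0.90 to 0.96 and Epi-like sums of 1.06 to 1.09. With library totals alone, a setting chosen after seeing the data, the median of all genes moved from -0.04 to -0.27, 9 of the 42 genes were higher and 7 lower, and the median of the 42 was 0.08 (background 14.1% higher and 38.3% lower). Under both scalings the median of the 42 genes lay above that of all genes. Under both, 9 genes were called higher (CDC20, ANLN, HMGB2, CENPE, CDK1, DEPDC1, MKI67, TOP2A and HMMR) and 3 lower (CENPA, NUSAP1 and ECT2). Without the 0 mM arm of run 1, which holds the 18 TE-like cells, 22 were higher and 2 lower with TMM factors, and without the 4 mM arm of run 2 there were 14 and 2. DESeq2 called 14 higher and 3 lower.

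Values below are CPM in the order 0 and 4 mM of run 1, then 0 and 4 mM of run 2. CPM use library totals, whereas fitted log2 differences use TMM factors unless stated. The median over all genes tested was -0.04 with TMM factors and -0.27 with library totals, so that ratios of these CPM lie below the fitted differences. CDC20 stood at 103, 109, 124 and 115 CPM in TE-like cells and at 64.8, 56.8, 65.2 and 68.4 CPM in Epi-like cells. The 2 groups did not overlap, and the fitted log2 difference was 1.06 ± 0.09 (SE, n = 4 arms per class, edgeR adjusted p = 8.9e-08). Its partners in mitotic exit behaved otherwise: UBE2C, the ubiquitin-conjugating enzyme of the complex, stood at 269, 172, 219 and 178 CPM in TE-like cells and at 239, 183, 229 and 227 CPM in Epi-like cells, and neither it nor UBE2S passed. Over all genes tested, 47.3% had CPM in the 4 TE-like sums that did not overlap the 4 Epi-like sums, against 4 higher and 5 lower of the 42 genes here.

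Among the 5 genes of the central spindle and cytokinesis, ANLN stood at 26.3, 49.5, 38.2 and 44.4 CPM in TE-like cells and at 22.0, 23.5, 23.2 and 24.5 CPM in Epi-like cells. These groups did not overlap either (log2 difference 1.05 ± 0.13, SE, edgeR adjusted p = 4.8e-06). KIF20B, a kinesin of the late division machinery, was higher by 0.37 ± 0.10 with TMM factors only. ECT2, the exchange factor that switches on RhoA at the cleavage site, went the other way, from 53.9 to 65.5 CPM in Epi-like cells to 28.5 to 46.4 CPM in TE-like cells (log2 -0.28 ± 0.11, adjusted p = 0.047 with TMM factors and 6.6e-04 with library totals), and it did not pass in 5 of 13 alternative fits. PLK1, the Polo kinase, stood at 26.3, 45.2, 45.6 and 45.7 CPM in TE-like cells and at 41.6, 36.0, 50.2 and 49.5 CPM in Epi-like cells, which overlap, and neither it nor the motor KIF23 passed with either scaling.

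Of 8 centromere and checkpoint genes, 2 were higher with TMM factors and 1 lower. CENPA stood at 48.2, 45.2, 55.3 and 44.7 CPM in TE-like cells and at 113, 118, 104 and 106 CPM in Epi-like cells, without overlap (log2 -0.94 ± 0.11, SE, edgeR adjusted p = 2.1e-06). HJURP, the chaperone that loads CENPA onto centromeres, stood at 8.76, 22.3, 18.4 and 15.2 CPM in TE-like cells against 19.0 to 22.5 CPM in Epi-like cells and did not pass. CENPE, a kinesin that moves chromosomes to the spindle equator, was higher in TE-like cells at 32.9, 54.5, 37.9 and 55.6 CPM against 24.1, 30.7, 32.9 and 38.6 CPM (log2 0.73 ± 0.12, adjusted p = 1.2e-04), higher in each arm although the groups overlap. CENPF, another kinetochore protein, passed with TMM factors only, and the checkpoint kinases BUB1 and TTK, the checkpoint protein BUB1B and the motor KIF2C did not pass with either scaling.

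The kinase CDK1 and its partners were mixed. CDK1 itself stood at 39.4, 45.2, 27.8 and 29.5 CPM in TE-like cells and at 25.1, 23.7, 24.0 and 24.7 CPM in Epi-like cells, without overlap, and the gap was wider in run 1 (log2 0.70 ± 0.14 over all arms, adjusted p = 6.1e-04). Its cyclin CCNB1 stood at 147, 243, 181 and 209 CPM in TE-like cells and at 172, 169, 184 and 188 CPM in Epi-like cells. CCNB1 passed with TMM factors (0.36 ± 0.11, adjusted p = 0.0095) and not with library totals (0.14, adjusted p = 0.24), and CCNB2 and CKS2 did the same. CDC25C, the phosphatase that activates CDK1, was low in both classes at 4.34 to 7.71 CPM in TE-like cells and 7.87 to 10.6 CPM in Epi-like cells, and passed as lower with library totals only, as did cyclin CCNA2 (log2 -0.30), and CKS1B passed with neither scaling.

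All 4 genes of chromosome structure and proliferation were higher with TMM factors. HMGB2, a DNA-bending chromatin protein, stood at 237, 264, 242 and 261 CPM in TE-like cells and at 198, 181, 189 and 184 CPM in Epi-like cells, without overlap (log2 0.64 ± 0.08, adjusted p = 9.4e-06). TOP2A, the topoisomerase that untangles chromosomes, stood at 134, 181, 134 and 130 CPM against 93.6, 94.5, 135 and 130 CPM, so that the CPM of the classes lay apart in run 1 and close together in run 2. MKI67, which coats mitotic chromosomes, stood at 59.1, 115, 88.9 and 105 CPM against 61.9, 72.4, 84.7 and 86.8 CPM and was higher in 3 of 4 arms. SMC4, a condensin subunit, was higher by 0.28 ± 0.09 with TMM factors and did not pass with library totals.

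Of 9 spindle genes, 5 were higher with TMM factors and 1 lower. NEK2, a centrosome kinase, stood at 6.57, 17.3, 13.4 and 13.6 CPM in TE-like cells against 9.56, 9.52, 11.4 and 10.5 CPM, resting on 3 UMIs in the first value (log2 0.63 ± 0.19, adjusted p = 0.012, and 0.089 with library totals). AURKA, the centrosomal Aurora kinase, stood at 39.4, 94.1, 66.7 and 75.2 CPM against 55.7, 52.7, 67.5 and 70.2 CPM. HMMR, a spindle and hyaluronan-binding protein, was higher by 0.53 ± 0.12 and passed under both scalings, while AURKA, GTSE1 and TPX2 passed with TMM factors only. NUSAP1, which bundles spindle microtubules, was lower without overlap, at 89.8, 89.8, 121 and 136 CPM against 155, 141, 186 and 187 CPM (log2 -0.38 ± 0.09, adjusted p = 0.0028). DLGAP5, a spindle assembly factor, was lower with library totals only (log2 -0.44), and KIF11 and TACC3 passed with neither scaling. The values of NUSAP1, ECT2, HMMR, HJURP and CDC25C are given because of what they showed.

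In the chromosomal passenger complex, the kinase gene AURKB was higher by 0.47 ± 0.11 and its partner CDCA8 by 0.40 ± 0.12 with TMM factors only, while survivin (BIRC5) was lower with library totals only, by a log2 of -0.31. DEPDC1 stood at 2.19, 25.4, 15.8 and 19.0 CPM in TE-like cells, the first from 1 UMI, against 9.98, 10.1, 12.9 and 11.4 CPM (log2 0.87 ± 0.22, adjusted p = 0.0041). Without the 4 mM arm of run 2 its adjusted p was 0.060. CDCA3 and CDCA2 passed as higher with TMM factors only.

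**Figure D2:**
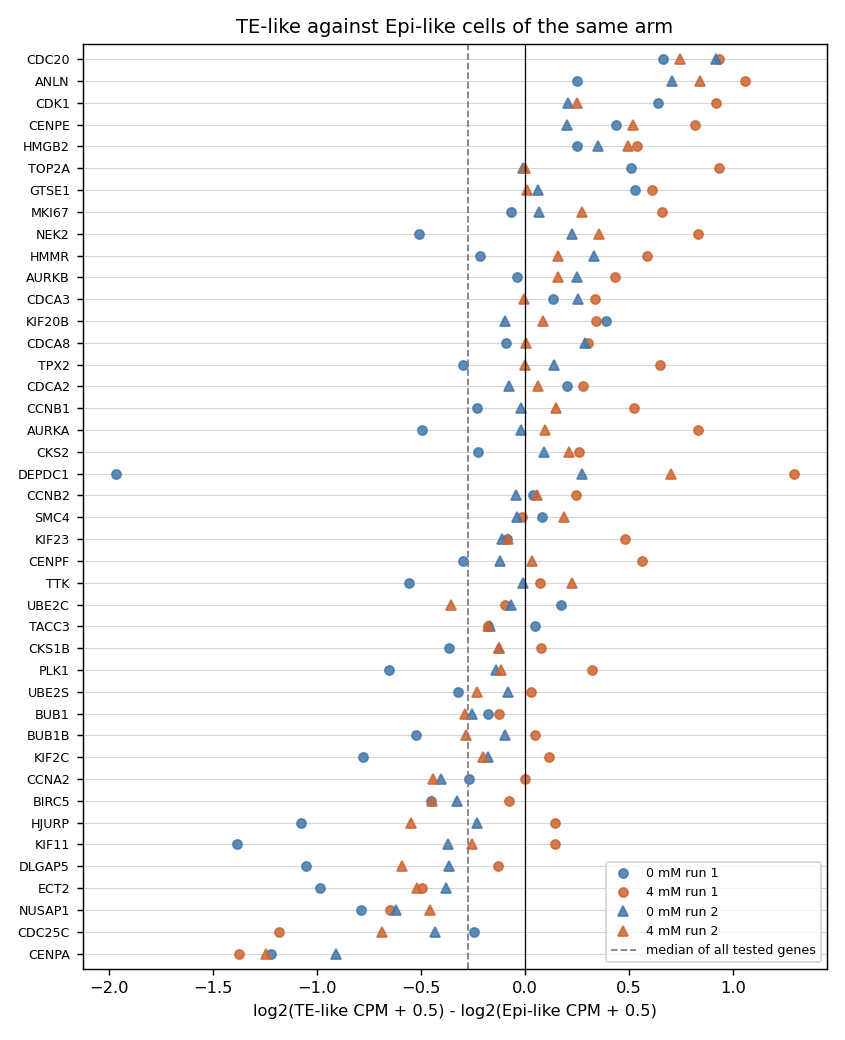
Log2 ratio of CPM (0.5 CPM added to both) in TE-like over Epi-like cells of the same arm (horizontal axis) for the 42 genes, with circles for run 1, triangles for run 2, blue for 0 mM and orange for 4 mM. The dashed line is the median of all genes tested, -0.27; CDC20 and ANLN lie to the right of 0 in 4 of 4 arms and CENPA, NUSAP1 and ECT2 to the left in 4 of 4.

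Epi-like cells at 120 h carried somewhat lower levels of the 42 genes than aggregates at 40 h from the same run. The log2 ratio of the summed level was -0.23 at 0 mM and -0.20 at 4 mM, and 31 of the 42 genes had a negative log2 difference in the fit with the dose in the model, against 49.5% of the 16044 genes tested. With edgeR (n = 2 arms per stage, 1 residual degree of freedom) 0 of the 42 genes were higher and 2 were lower, and 7.5% of all genes passed. At an unadjusted p under 0.05, 11 of the 42 genes were lower and 0 higher, beside 23.3% of all genes in either direction. Taken without regard to direction this count was close to the background. The background was not split by direction at this threshold. At the adjusted threshold 772 of all genes were higher and 431 lower. DESeq2 called 0 higher and 1 lower. The culture format and the time differ together here and cannot be told apart.

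HMGB2 stood at 276 and 303 CPM in aggregates and at 198 and 181 CPM in Epi-like cells at 0 and 4 mM (log2 -0.56 ± 0.13, SE, adjusted p = 0.023). PLK1 stood at 59.6 and 53.1 CPM in aggregates and at 41.6 and 36.0 CPM in Epi-like cells of run 1 (log2 -0.49 ± 0.13, adjusted p = 0.045). In neither gene did the stages overlap. With 2 arms per stage the same held for genes that did not pass, such as TOP2A and AURKA (lower) and TTK and KIF2C (higher). The share of such genes over all genes was not counted. In the Epi-like cells of run 2, which had no aggregates beside them, HMGB2 stood at 189 and 184 CPM and PLK1 at 50.2 and 49.5 CPM, the PLK1 values lying between those of run 1 and the aggregates. Without the 4 mM Epi-like arm neither gene passed (adjusted p = 0.16 for HMGB2 and 0.30 for PLK1), without the 0 mM Epi-like arm or the 0 mM aggregates 1 did, and without the 4 mM aggregates 5 of the 42 genes were called lower.

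In aggregates at 40 h, still at the end of the treatment, most of the 42 genes were slightly lower at 4 mM. With 1 arm per dose no test was possible, and the intervals hold counting error only. Of 39 genes at a mean of 20 CPM or more, 34 were lower at 4 mM, against 55.1% of 5090 genes at that level, and the median log2 ratio was -0.12 against -0.03. With a fold limit lying between the 1.26 of BIRC5 and the 1.24 of TACC3, 3 of the 39 genes were lower (HMMR, UBE2C and BIRC5) and 0 higher, and 6.74% of all genes at that level were lower by as much.

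HMMR had the lowest ratio, at 65.4 CPM (62.8 to 68.1) and 39.6 CPM (37.4 to 41.9), a log2 ratio of -0.72. UBE2C stood at 298 CPM (293 to 304) and 199 CPM (194 to 204), a log2 ratio of -0.58. BIRC5 stood at 95.9 and 76.3 CPM and TACC3, a spindle pole protein, at 54.1 and 43.5 CPM. TOP2A (123 and 122 CPM), CDK1 (32.8 and 32.6 CPM) and AURKA (67.7 and 69.0 CPM) lay close together, and CKS1B, a small CDK-binding subunit, stood at 349 and 419 CPM. The summed level had a log2 ratio of -0.11. CKS1B, UBE2S, UBE2C, CCNB2 and HMGB2 have pseudogene copies in the genome, and whether reads shared with a copy alter their counts was not tested.

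In Epi-like blastoid cells, sampled at 120 h after the treatment of the initial 40 h, the log2 ratio of the summed level was -0.08 in run 1 and -0.0025 in run 2, and the median log2 change of the 42 genes was 0.00. With edgeR and the run in the model (n = 2 arms per dose, 1 residual degree of freedom) 2 genes were higher at 4 mM and 2 lower, 4 of 42 beside a background of 8.69% of 17014 genes, so that the share was close to the background. Under 6 other settings of scaling, filter, cell cut or class margin 3 to 5 of the 42 genes were called, and 1 was without the deepest 5% of cells. DESeq2 called 0 of the 42 (3 at an unadjusted p under 0.05) and 218 of all genes, and the fit without the run 0 of the 42 and 16 of all genes. The 4 fits that left out 1 arm also called 0, but they were of another form, over both classes together, and called no more than 25 genes in all, so that they bear little on these 4 calls. Of 13 alternatives CENPE passed in 7, SMC4 and AURKB in 6 each and UBE2S in 3. Epiblast markers moved with dose in the same sums (log2 0.27 and 0.11 in runs 1 and 2), and their part was not tested.

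CENPE stood at 24.1 and 30.7 CPM at 0 and 4 mM in run 1 and at 32.9 and 38.6 CPM in run 2, and rose with dose (log2 0.28 ± 0.07, SE, edgeR adjusted p = 0.010). SMC4 rose from 66.1 to 83.0 CPM and from 82.6 to 90.04 CPM (0.21 ± 0.06, adjusted p = 0.034). AURKB fell from 42.6 to 33.7 CPM and from 49.0 to 43.1 CPM (-0.24 ± 0.07, adjusted p = 0.022). UBE2S fell from 572 to 444 CPM (run 1) and from 558 to 534 CPM (run 2) (log2 -0.22 ± 0.07, adjusted p = 0.047). The doses overlap across runs for CENPE and AURKB and do not for SMC4 and UBE2S.

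In TE-like blastoid cells 0 of the 42 genes passed by dose, beside 1.44% of 9104 genes (edgeR, n = 2 arms per dose, 1 residual degree of freedom). At an unadjusted p under 0.05 there were 7, of which AURKA, CCNB1, CENPE, CENPF, KIF11 and MKI67 were higher at 4 mM and UBE2C lower, beside 9.19% of all genes, and DESeq2 called 0. In sign, 30 of 42 genes were higher, against 49.4% of all genes tested, with a median log2 change of 0.13. In the same sums the summed level of 9 trophectoderm markers outside the class rule was higher at 4 mM (log2 0.97 and 0.53 in runs 1 and 2; 4 of the 9 passed) and that of epiblast markers lower (-0.19 and -0.22), and their part in the result was not tested. By run, the log2 ratio of the summed level was 0.35 in run 1, with 18 cells at 0 mM and 49 at 4 mM, and -0.0040 in run 2, which held 181 and 170 cells. The median over the 42 genes was 0.53 without 1 arm of run 2, whichever it was, and 0.02 without 1 arm of run 1, in fits over both classes together. Such a fit takes the dose change in TE-like cells from the run left whole. Leaving out either arm of a run thus gives the same comparison, without a replicate of the dose, and no calls are read from it.

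In TE-like cells CENPE stood at 32.9 and 54.5 CPM in run 1 and at 37.9 and 55.6 CPM in the other run, a log2 difference of 0.58 ± 0.21 (SE) with an adjusted p of 0.27, so that its doses did not overlap and yet it did not pass. MKI67 went from 59.1 to 115 and from 88.9 to 105 CPM, AURKA from 39.4 to 94.1 and from 66.7 to 75.2 CPM, and CCNB1 from 147 to 243 and from 181 to 209 CPM. CDK1 stood at 39.4 and 45.2 CPM in run 1 and at 27.8 and 29.5 CPM in run 2. UBE2C was lower at 4 mM in both runs, from 269 to 172 and from 219 to 178 CPM (log2 -0.47 ± 0.15, adjusted p = 0.16). UBE2C was thus lower at 4 mM in aggregates, in Epi-like cells of both runs (239 to 183 and 229 to 227 CPM) and in TE-like cells of both runs, but did not pass in Epi-like cells (-0.19 ± 0.07, adjusted p = 0.092). It passed in Epi-like cells with library totals (adjusted p = 0.013) and in TE-like cells without the deepest 5% of cells of each arm.

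The change with dose was then compared between the classes directly. No gene of the 42 passed in the test of dose by class (edgeR, 8 sums, 2 residual degrees of freedom), where 0.774% of 13174 genes did. The smallest adjusted p was 0.34, for CENPF, 5 genes had an unadjusted p under 0.05 (AURKA, CCNB1, CENPF, DEPDC1 and MKI67), beside 6.92% of all genes, and DESeq2 called 0. The sign was positive for 36 of 42 genes, meaning a more positive change in TE-like cells, against 50.3% of all genes. The median over the 42 genes was 0.17 with all arms, 0.10 without the 0 mM arm of run 1, 0.06 without the 4 mM arm of run 1, 0.40 without the 0 mM arm of run 2, 0.32 without the 4 mM arm of run 2 and 0.07 without the deepest 5% of cells, where 28 of 42 genes were positive.

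**Figure D3:**
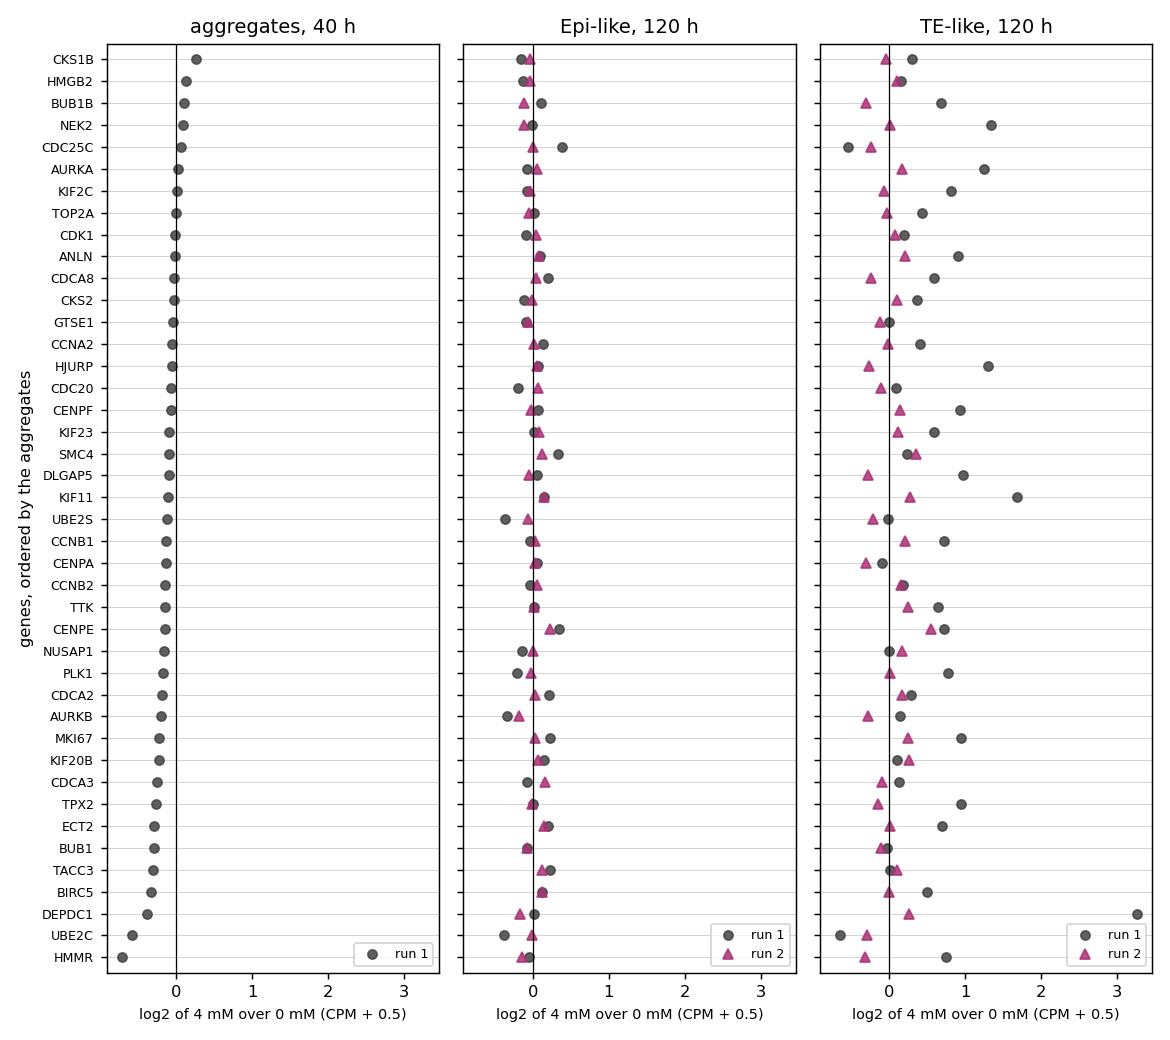
Log2 ratio of CPM (0.5 CPM added to both) at 4 mM over 0 mM (horizontal axes, same scale) for the 42 genes in aggregates, Epi-like cells and TE-like cells, with circles for run 1 and triangles for run 2, genes ordered by the ratio in aggregates. Most aggregate points lie left of 0, Epi-like points lie close to 0, and the TE-like points of run 1 spread to the right, up to DEPDC1, whose 0 mM value rests on 1 UMI.

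Single cells showed how unevenly these transcripts are carried. Each cell was thinned to 5000 UMIs, and no kept cell was shallower. In Epi-like cells of run 2 the median cell carried 16 UMIs of the 42 genes at either dose, with 6 at the 10th and 36 at the 90th percentile. Cells with 20 or more such UMIs made up 37.7% at 0 mM (exact 95% Clopper-Pearson interval 36.1 to 39.3%, 3719 cells) and 37.4% at 4 mM (36.1 to 38.8%, 4804 cells). In run 1 they made up 32.6% (28.1 to 37.4%, 408 cells) and 29.2% (26.5 to 32.1%, 1043 cells). Without thinning, after scaling each cell to 5000 UMIs, the 4 shares were 29.9, 26.3, 35.6 and 35.9%. The cut lies in a continuous range: 414 of the 3719 cells lay at 18 to 21 UMIs.

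TE-like cells spread over the same range. In run 2 the shares at 20 UMIs or more were 32.6% (25.8 to 39.9%, 181 cells) and 33.5% (26.5 to 41.2%, 170 cells), and the 90th percentiles were 36 and 37 UMIs. In run 1 they were 22.2% of 18 cells (6.41 to 47.6%) and 34.7% of 49 cells (21.7 to 49.6%). Among aggregate cells the share was 42.5% at 0 mM (39.7 to 45.4%, 1201 cells) and 35.7% at 4 mM (32.8 to 38.7%, 1054 cells). Without thinning the aggregate shares were 41.5 and 35.6%. At 40 UMIs or more, the upper end, the aggregate shares were 8.58% (7.05 to 10.3%) and 9.30% (7.61 to 11.2%). All these intervals cover the counting of cells within 1 culture only, and cells of 1 culture are not replicates of a dose, so that no order by dose is read from them.

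**Figure D4:**
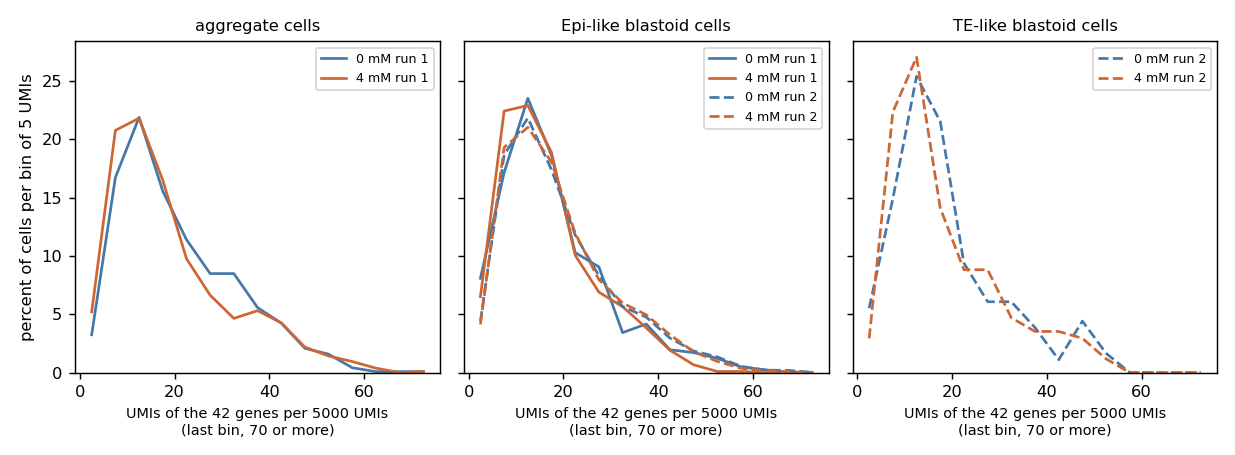
Percent of cells (vertical axis) by the UMIs of the 42 genes among 5000 UMIs (horizontal axis, bins of 5 UMIs), solid for run 1, dashed for run 2, blue for 0 mM and orange for 4 mM; the TE-like sums of run 1, with 18 and 49 cells, are not drawn. The bin of 10 to 14 UMIs holds 21.9 and 21.8% of aggregate cells at 0 and 4 mM, and the bin starting at 30 UMIs holds 8.49 and 4.65%. The bins starting at 35 and 40 UMIs hold 5.58 and 5.31% and 4.25 and 4.27%.

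The genes differed in how sharply they separated cells. In each sum with at least 160 cells, cells were ranked by the thinned UMIs of the other genes of the 42, and each gene was summed over the upper 25% and the lower 25% of cells. This describes how the 42 genes go together and carries no test. PLK1 was the sharpest in Epi-like cells, with a ratio of top to bottom of 12.04 to 30 over 4 arms (geometric mean 15.8). In run 2, with 929 and 1201 cells in each 25%, the ratio of PLK1 was 12.04 to 13.95. The value of 30 came from run 1, where each 25% held 102 and 260 cells at 0 and 4 mM. DEPDC1 (geometric mean 11.0), HMMR (10.8), TOP2A (10.7), MKI67 (10.4) and CDCA3 (10.1) followed. At the other end stood CKS1B, at 1.71 to 2.05, SMC4 at 1.94 to 2.53, KIF20B at 2.18 to 2.46 and CCNB2 at 1.77 to 2.89. The order of neighbours within each end is not separable, since their ranges over arms overlap, but PLK1 and CKS1B lie far apart in all 4 arms.

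Kinases and their cyclins did not rank together. CDK1 had a geometric mean of 5.26, CCNB1 of 4.21 and CCNA2 of 4.30, whereas CCNB2, the other B-type cyclin here, had 2.44. The Aurora kinases AURKB and AURKA stood at 7.11 and 7.10. UBE2C (6.62) and UBE2S (2.80), which act with the same complex, lay apart, UBE2S at 2.59 to 2.96 in the 4 Epi-like arms and UBE2C at 5.53 to 7.72. In TE-like cells of run 2, each 25% held 42 to 45 cells, and PLK1 gave 7.33 and 26.0, while CCNB2 gave 0.89 and 3.71 in the 2 arms.

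The upper 25% of cells also held more RNA. Its median depth in Epi-like cells was 1.28 to 1.37 times that of the lower 25%, although ranks used thinned counts. Genes of the S phase differed little between these ends in Epi-like cells. They summed to 1760, 1916, 1839 and 1889 CPM in the upper 25% and 1710, 1886, 1812 and 2019 CPM in the lower 25% of the 4 Epi-like arms. Over all cells of the same arms they summed to 2080.5, 2318, 2153 and 2270 CPM, above both ends. In TE-like cells of run 2 the upper 25% stood at 1772 and 1577 CPM at 0 and 4 mM and the lower 25% at 1853 and 1935 CPM. In aggregates these values were 1875 and 1738.5 CPM against 1816 and 1515 CPM. The upper 25% may include doublets within a hashtag, which demultiplexing cannot see, and their part was not tested.

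**Figure D5:**
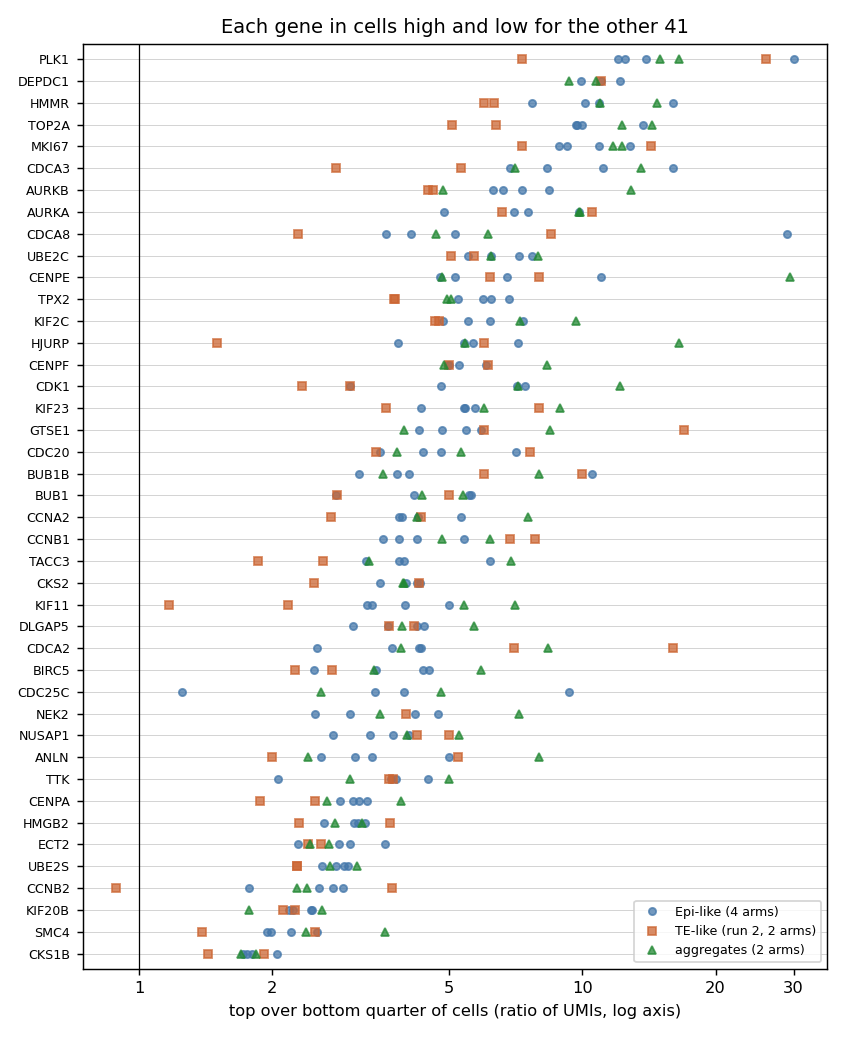
Ratio of UMIs in the upper over the lower 25% of cells ranked by the other genes (horizontal axis, log scale) for each of the 42 genes, with 1 point per sum: blue for 4 Epi-like arms, orange for 2 TE-like arms of run 2 and green for 2 aggregate arms; points with 0 UMIs in the lower 25% are left out. PLK1 lies at 12.04 to 30 in Epi-like cells and CKS1B at 1.71 to 2.05.

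Promoters of such genes are known for a pair of short elements, the cell cycle genes homology region (CHR, TTTGAA or TTCGAA) and the CCAAT box. The promoters of 35 of the 42 genes could be matched in RefSeq (GRCh38.p14), as 250 bases before and 50 after the start. Counting both strands, TTTGAA or TTCGAA stood in 26 of the 35 (74.3%) against 16.6% of 27305 promoters, and CCAAT in 28 (80.0%) against 35.7%. Both stood in 23 (65.7%) against 6.58%. In 13 of the 35 a TTTGAA or TTCGAA began 15 to 40 bases before the start, and in 2 promoters the motifs shared a base. These positions were not counted over all promoters, so that no preference is read from them. A match describes letters, not a bound site.

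The 4 promoters below belong to the genes at the ends of these rankings: PLK1 and CKS1B, the sharpest and the flattest between upper and lower cells, and CDC20 and CENPA, the largest differences in TE-like cells in each direction. Each is given 5′ to 3′ on the strand of the gene, which is the plus strand in all 4, with both elements on either strand in capitals. They lie at chr16:23678639-23678938 (PLK1), chr1:154974431-154974730 (CKS1B), chr1:43358731-43359030 (CDC20) and chr2:26785806-26786105 (CENPA).
PLK1: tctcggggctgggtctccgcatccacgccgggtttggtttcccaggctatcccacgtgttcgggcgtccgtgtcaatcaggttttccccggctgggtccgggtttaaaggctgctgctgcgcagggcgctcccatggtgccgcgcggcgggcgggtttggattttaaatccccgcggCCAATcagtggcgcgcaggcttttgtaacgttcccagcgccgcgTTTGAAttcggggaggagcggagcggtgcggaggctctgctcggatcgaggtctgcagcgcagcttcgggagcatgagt
CKS1B: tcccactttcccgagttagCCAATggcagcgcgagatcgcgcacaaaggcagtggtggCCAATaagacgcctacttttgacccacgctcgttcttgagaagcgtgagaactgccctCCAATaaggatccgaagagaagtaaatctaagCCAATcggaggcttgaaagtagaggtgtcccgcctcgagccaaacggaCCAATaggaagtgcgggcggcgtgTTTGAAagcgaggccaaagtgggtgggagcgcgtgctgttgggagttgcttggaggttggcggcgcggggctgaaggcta
CDC20: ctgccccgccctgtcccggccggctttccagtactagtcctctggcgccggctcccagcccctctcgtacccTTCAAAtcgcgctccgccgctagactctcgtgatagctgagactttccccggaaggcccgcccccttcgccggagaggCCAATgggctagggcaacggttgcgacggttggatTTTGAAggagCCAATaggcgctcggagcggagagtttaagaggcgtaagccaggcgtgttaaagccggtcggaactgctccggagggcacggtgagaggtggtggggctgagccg
CENPA: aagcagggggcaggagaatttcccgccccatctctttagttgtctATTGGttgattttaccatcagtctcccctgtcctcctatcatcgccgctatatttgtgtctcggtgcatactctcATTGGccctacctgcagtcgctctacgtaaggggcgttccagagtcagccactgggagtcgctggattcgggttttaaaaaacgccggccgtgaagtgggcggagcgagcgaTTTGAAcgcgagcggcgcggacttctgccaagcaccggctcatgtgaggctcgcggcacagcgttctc

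PLK1 and CKS1B thus both carry a TTTGAA at -29 and -30 and CCAAT at -73 (PLK1) and at 5 places (CKS1B), yet stand at opposite ends of the ratio between upper and lower cells. CDC20 has TTTGAA at -65 and, on the other strand, at -178, with CCAAT at -100 and -55, and CENPA has TTTGAA at -18 and CCAAT on the other strand at -205 and -130. Positions count the first base from the start, with -1 just before it. Over the 26 genes with TTTGAA or TTCGAA the median ratio in Epi-like cells was 4.77, with a range from 1.83 to 15.8. Over the 9 without it was 4.21, with a range from 2.80 to 7.11.

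Among factors that act on these promoters, FOXM1, the forkhead activator of G2/M genes, was lower in TE-like cells at 21.9, 26.6, 16.1 and 21.0 CPM against 32.0, 36.1, 35.1 and 35.5 CPM, without overlap (log2 -0.53 ± 0.14, SE, edgeR adjusted p = 0.0052). MYBL2, which works with the same promoter complex, was higher with TMM factors only (0.31 ± 0.09). Of the 19 transcription genes 5 were higher and 4 lower, a share close to the 49% of all genes. The atypical E2F repressors went apart, with E2F8 higher by a log2 of 2.32 ± 0.25 (adjusted p = 9.8e-07) and E2F7 lower by -1.89 ± 0.30 (adjusted p = 6.5e-05). E2F8 was also higher at 4 mM in TE-like cells, from 10.9 to 35.9 and from 8.38 to 19.6 CPM (1.34 ± 0.32, edgeR adjusted p = 0.026). The value of 10.9 CPM came from 18 cells with 456611 UMIs in all, so that it rests on few UMIs. The fit had 1 residual degree of freedom, and in this comparison edgeR called 131 of all genes and DESeq2 30.

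Of 15 genes listed for CDK inhibition and the G2 checkpoint, which include the CDK-activating phosphatase CDC25A, 14 were tested. Of these 4 were higher and 3 lower in TE-like cells, again close to the 49% of all genes. CDKN1C, the inhibitor p57 of trophoblast, led with a log2 of 2.33 ± 0.23 (adjusted p = 4.4e-07), at 6.57, 101, 94.9 and 139 CPM against 17.1 to 25.9 CPM in Epi-like cells, the first value from 3 UMIs in 18 cells. GADD45A, a stress-induced G2 brake, was higher by 1.54 ± 0.10. CHEK1, the replication checkpoint kinase, was lower by -0.26 ± 0.10 (adjusted p = 0.046), and WEE1, which phosphorylates CDK1 to hold it off, did not pass. CDKN1A (p21) stood at 78.8 CPM in the 18 cells and at 14.1 to 20.3 CPM in the other TE-like sums. Between stages 6 of these 14 genes were higher in Epi-like cells than in aggregates and 0 lower, beside 7.5% of all genes, among them CHEK2 (1.60 ± 0.17), CDKN1A (1.27 ± 0.17) and CHEK1 (0.54 ± 0.13).

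With dose, 4 of these 14 genes were higher and 2 lower in Epi-like cells at 4 mM, beside 8.69% of all genes. CDC25A, which activates CDKs, was among the higher ones (0.31 ± 0.07). CHEK1 was higher by 0.22 ± 0.06 and CHEK2 by 0.24 ± 0.07, and BTG2, an antiproliferative gene, went from 8.88 to 5.19 and from 9.59 to 5.73 CPM (-0.75 ± 0.11, adjusted p = 1.3e-05). In TE-like cells CDKN1C was higher by 1.02 ± 0.27 (adjusted p = 0.048), with 3 UMIs behind the 0 mM value of run 1. Its change was 0.56 without either arm of run 1 and 4.00 without either arm of run 2. In these fits the change in TE-like cells came from a single run. No replicate of the dose was left, so that only the size is given. With all arms, the change of CDKN1C was 1.53 without the deepest 5% of cells (edgeR adjusted p = 7.2e-05) and 0.79 without the run in the model (0.65). With DESeq2 it was 2.09 and did not pass.

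The other parts of the machinery also held genes of both directions between TE-like and Epi-like cells, where 49% of all genes passed. Of 39 other G2/M genes 10 were higher and 8 lower, led by PIMREG (-1.20 ± 0.22) and SKA2 (1.18 ± 0.10), and 6 and 13 with library totals. Of 22 kinetochore and checkpoint partners 3 were higher and 3 lower, with CENPN, which binds CENPA nucleosomes, up by 0.87 ± 0.09. Of 18 genes of condensin, cohesin and separase 4 were higher and 3 lower. Securin (PTTG1), the inhibitor of separase, was higher by 0.84 ± 0.08 and stood at 250, 198, 219 and 210 CPM against 152, 121, 154 and 140 CPM, without overlap. Of 16 genes of the anaphase promoting complex and its regulators 5 were higher and 1 lower, led by FBXO5, an inhibitor of that complex, at 1.12 ± 0.10. Of 29 S phase genes 11 were higher and 7 lower.

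By dose in Epi-like cells, 4 of the 39 other G2/M genes were higher and 3 lower, with the kinesin KIF18A at 7.62 to 13.0 and 10.1 to 12.8 CPM (0.47 ± 0.10), and 3 of 29 S phase genes were higher and 0 lower. None of the kinetochore partners passed in either direction, and PTTG1 alone of the condensin, cohesin and separase list passed, as lower (-0.23 ± 0.07). In TE-like cells 0 of 38 other G2/M genes and 0 of 29 S phase genes tested passed by dose. Between stages 0 of the 39 other G2/M genes passed.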

How the data were processed

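UMI counts were measured by droplet 3′ RNA sequencing with hashtag antibodies. The count matrices were deposited by the authors as whole UMI counts per gene and cell, made with bcl2fastq 2.20.0.422 and Cell Ranger 6.1.2 on GRCh38 (reference 2020-A), and the authors filtered in Seurat 4.3.0. Hashtags were assigned here with HTODemux (Seurat 5.3.0, quantile 0.99), and cells with at most 15% mitochondrial UMIs and at least 7000 (run 1) or 5000 (run 2) UMIs were kept. Doublets across hashtags (512 and 1142 barcodes) and 2907 and 3591 barcodes with no hashtag were dropped; no other doublet caller was run.

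For each arm and class the counts of its cells were added up, and edgeR 4.0.16 was run on these sums (quasi-likelihood test, TMM factors, its filter on low counts, Benjamini-Hochberg adjustment over all genes, threshold 0.05) in R 4.3.3. The models held the run (dose), the arm (class) or the dose (stage). DESeq2 1.42.0 was an alternative, and scripts were tested on simulated data. CPM used library totals, and ratios of CPM had 0.5 CPM added. Python 3.11.15, numpy 2.4.6, scipy 1.17.1 and pandas 2.3.3 were used otherwise. The deviations of the 0 and 4 mM arms of 1 run from their dose means correlated over 4984 genes (0.58 in Epi-like and 0.26 in TE-like sums), as did those of both classes of 1 arm (0.21 to 0.32), which share a culture.

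Values by arm are given for the called genes with the largest changes (at most 6 by dose, 8 by class or stage, 4 in aggregates) and for CDK1, CCNB1, TOP2A, MKI67, AURKA, PLK1 and UBE2C. The genes, lists and tests were chosen with earlier results of these data known. The alternatives were other scalings, filters, cell cuts and class margins, models without the block, and each arm left out.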

Additional observations from a re-analysis of the deposited data

Results flagged for a closer look

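In 5 of 86 groups of 4 arms, 1 arm lay far from the other 3 by Dixon's test at 95%, about as many as the 1 in 20 that chance gives. TOP2A in TE-like cells stood at 181 CPM at 4 mM in run 1, with the others at 130 to 134 CPM. UBE2S in TE-like cells stood at 529 CPM at 0 mM in run 2, with the others at 453 to 458 CPM. PLK1 stood at 26.3 CPM (others 45.2 to 45.7 CPM) and KIF2C at 21.9 CPM (others 36.2 to 39.0 CPM) in the 18 TE-like cells at 0 mM in run 1. CDC25C in Epi-like cells stood at 7.87 CPM at 0 mM in run 1, with the others at 10.5 to 10.6 CPM.

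The change of CDKN1C with dose was more positive in TE-like than in Epi-like cells by a log2 of 1.04 ± 0.22 (edgeR's test of the difference, adjusted p = 5.5e-04). Its adjusted p was 0.51 without the 0 mM arm of run 1, 0.14 without the 4 mM arm of run 1, 0.051 without the 4 mM arm of run 2 and 1.1e-10 without the 0 mM arm of run 2, with a log2 between 0.60 and 4.26. The 0 mM value of run 1 rests on 3 UMIs.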

How the results depend on the processing

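The number of the 42 genes called between TE-like and Epi-like cells was 26 as reported, 17 with DESeq2, 16 with library totals and 16 to 25 with each arm left out. Against aggregates, Epi-like cells had 2 calls as reported, 1 with DESeq2, 4 with RLE factors, with library totals or without the deepest 5% of cells, 5 without the filter on low counts and 0 to 5 with each sum left out. By dose in Epi-like cells there were 4 calls as reported, 3 to 5 with RLE factors, library totals, no filter, other UMI cuts or a class margin, 0 with DESeq2, 1 without the deepest 5% of cells and 0 with each arm left out. In TE-like cells there were 0, with 1 without the deepest 5% of cells and 0 to 2 with each arm left out; the test of dose by class gave 0 in the 12 alternatives run. Fits that left out an arm by dose were made over both classes with run and class in the model, and are unlike the reported ones. They took the dose change of the class with the missing arm from a single run, without a replicate of the dose. The log2 difference of the summed level between the classes was -0.01 and turned to 0.20 with TMM-scaled CPM; that between Epi-like cells and aggregates was -0.22, -0.24 without the deepest 5% of cells and -0.16 with TMM-scaled CPM. The causes were not tested.

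Without the replicate block (run, arm or dose), calls were 0 by dose in Epi-like cells, 0 in TE-like cells, 24 between the classes and 1 against aggregates. Arms of 1 run deviated together, and the block is part of the reported fits; against aggregates it was the dose, where the correlation of arms at 1 dose was 0.030. ANLN, CDC20, CDK1, CENPA, CENPE, HMGB2, HMMR, MKI67 and TOP2A passed between the classes in 13 of 13 alternatives. The 18 TE-like cells at 0 mM in run 1 held 1 UMI of DEPDC1 and 3 each of NEK2 and CDC25C.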
